A study of Mus musculus with 7 samples.

Results

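The killer cell lectin-like receptors are C-type lectin proteins of the cell surface that natural killer (NK) cells and CD8 T cells share, and most of their genes lie side by side in the NK gene complex of mouse chromosome 6. Some members activate the cell and some inhibit it, and several bind class I or class I-like molecules on a target cell. CD8 T cells gain many of these receptors after activation, so the genes are read both as NK cell genes and as genes of antigen-experienced CD8 T cells. Ncr1, which encodes NKp46, is an immunoglobulin-type receptor rather than a lectin, is largely restricted to NK cells and related innate lymphoid cells, and was included as the NK-restricted point of comparison.

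The 9 genes were taken by symbol from the 55357 genes of the deposited abundance table: Klrk1, Klrd1, Klrc1, Klrc2, Klrg1, Klrb1c, Klre1, Klri2 and Ncr1. Each symbol matched 1 row. The RNA came from live cells double positive for CD45 and CD8, sorted from MCA205 fibrosarcomas grown under the skin of mice for 14 days, with at least 30000 cells per condition. The hosts were ENT1KO mice (Slc29a1-/-, 4 libraries with the identifiers 11, 12, 14 and 15) and WT C57Bl/6 mice (3 libraries, 1, 2 and 3). Both groups carried the same tumour line, the deletion was in the host, and neither the age of the mice nor the deleted exon is given in the sources used here. The labels do not say that each library is a separate animal, so p-values measure the spread between these libraries, which may be technical. Values are TPM, which correct for transcript length and sum to the same total in every library, and errors are SD over 4 ENT1KO and 3 WT libraries. Log2 differences are ENT1KO minus WT on log2(TPM + 1), a scale that compresses changes in genes of low level.

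Depth was close to equal, with 18624318 to 19660792 reads per library, as recovered from the normalized counts, though whole reads are less certain for WT 1 and WT 3. Slc29a1, the deleted gene, averaged 14.8 ± 2.001 TPM in ENT1KO libraries (SD, n = 4) and 53.2 ± 4.94 TPM in WT libraries (SD, n = 3). Of 13798 genes tested with limma-trend, 27.5% were higher and 23.1% lower in ENT1KO at an adjusted p under 0.05, so a call by itself was common. Of all calls 54.4% were higher in ENT1KO by TPM, against 42.9% on the authors' normalized counts, where the median of all genes was 0.00 rather than 0.15. The sorted populations differed in their content of other RNA. 15 of 15 CD8 T cell identity genes were higher in ENT1KO, while 15 of 15 tested fibroblast and tumour genes and 13 of 13 tested macrophage genes were lower. Among the most abundant, Cd3g averaged 1322 ± 224 TPM in ENT1KO and 638 ± 266 TPM in WT, and Cd8a averaged 1047 ± 188 TPM in ENT1KO and 501 ± 187 TPM in WT. Trac averaged 1635 ± 114 TPM in ENT1KO and 772 ± 335 TPM in WT, and Trbc2 1516 ± 137 TPM in ENT1KO and 687 ± 295 TPM in WT. The Trbc2 call was lost by edgeR (adjusted p = 0.083). All 15 were detected in every library. The identity list summed to 10140, 11470, 9315 and 10180 TPM in ENT1KO 11, 12, 14 and 15, against 4546, 2913 and 7035 TPM in WT 1, 2 and 3. The CD8 T cell markers of the sort label were thus present in every library. Their sum was nevertheless below that of the fibroblast and tumour genes in WT 1 and WT 2, and below that of the macrophage genes in WT 2. Fibroblast and tumour genes summed to 92.5, 196.1, 917 and 11.2 TPM in the same ENT1KO libraries, against 6479, 8298 and 4369 TPM in WT. Lum was at 0 TPM in 2 ENT1KO libraries and Col5a1, Col6a1 and Mgp in 1 each. Macrophage genes summed to 438, 541, 1314 and 113 TPM in ENT1KO, against 3536, 5174 and 3455 TPM in WT. The most abundant of these genes were Col3a1, Postn, Sparc and Fn1, with log2 differences of -6.03, -5.95, -5.93 and -4.83, and Lyz2, C1qa, C1qb and Apoe, with -3.3, -3.35, -3.33 and -3.15. Without WT 2 the macrophage count was 8 of 13, and Col3a1, Postn, Sparc, C1qa, C1qb and Apoe were among the genes that lost their call. In a bulk sample, fewer cells of a type and less RNA per cell cannot be told apart, and the part of this difference in the receptor results was not tested.

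Klrd1, Klrk1 and Klrc1 were the 3 most abundant receptors in both genotypes. They averaged 835, 779 and 770.1 TPM in ENT1KO, where they ranked in that order with overlapping ranges. In WT the order was Klrd1 at 394, Klrc1 at 389 and Klrk1 at 328 TPM, again with overlapping ranges. By mean over all libraries they ranked 198, 211 and 219 (Klrd1, Klrc1, Klrk1) among the 13798 tested genes. Klre1 and Klrc2 came next in both genotypes, at 106.5 and 48.3 TPM in ENT1KO and at 64.6 and 14.9 TPM in WT. Klri2, Klrb1c and Klrg1 followed between 8.03 and 17.03 TPM in ENT1KO and between 2.55 and 11.4 TPM in WT. Klri2 and Klrb1c overlapped in both genotypes, Klrb1c and Klrg1 overlapped in ENT1KO, and Klrc2 and Klri2 overlapped in WT. Ncr1 was last, at 0.59 TPM in ENT1KO and 1.3 TPM in WT, and ranked 13593. In WT 1, Klrg1 at 1.98 TPM lay close to Ncr1 at 1.53 TPM, while the 3 leading receptors were at 201.0 TPM or more in every library.

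**Figure D1:**
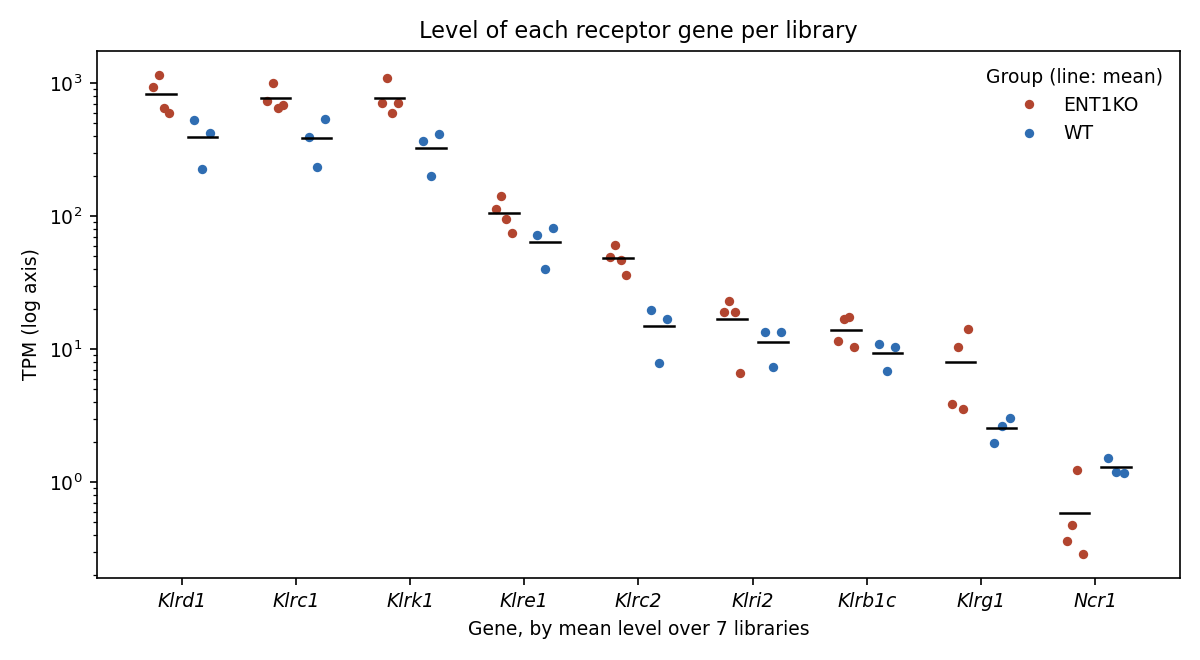
Level of each receptor gene per library in TPM on a log axis, with ENT1KO libraries left of WT libraries and bars at the group means. Klrk1, Klrd1, Klrc1, Klrc2 and Klrg1 show no overlap between genotypes and higher ENT1KO values, though Klrg1 was not called. Ncr1 lies between 0.29 and 1.53 TPM and overlaps.

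With limma-trend on log2(TPM + 1), 4 of the 9 genes rose in ENT1KO (Klrk1, Klrd1, Klrc1 and Klrc2) and 0 fell, beside 27.5% and 23.1% of all tested genes. All 9 passed the filter of 1 TPM in 3 libraries, Ncr1 through its 3 WT libraries and ENT1KO 14. The TPM of 5 genes, those 4 and Klrg1, did not overlap between genotypes, with ENT1KO above, which 30.3% of all tested genes did; the opposite order held for 24.9% of genes and for none of the 9. The median log2 difference of the 9 was 1.04, against 0.15 over all tested genes and 1.17 over the CD8 T cell identity list. In the authors' deposited table, on a different scale, 6 of the 9 were higher and 0 lower at an adjusted p under 0.05, beside 16.5% and 25.8% of 18878 genes. These 6 were Klrk1, Klrd1, Klrc1, Klrc2, Klrg1 and Klre1. EdgeR's quasi-likelihood test on reads recovered from the normalized counts called 3 of the 9 higher (Klrk1, Klrc2 and Klrd1), beside 18.5% of all tested genes higher and 28.2% lower. The median of all genes was 0.00 by edgeR, and the 8 lectin genes stayed higher in ENT1KO under quantile normalization, on normalized counts and by edgeR. Ncr1, at -0.56 in TPM, was -1.19 with a pseudocount of 0.1 and -0.18 with a pseudocount of 5. It was -0.01 under quantile normalization, -1.46 on normalized counts and -1.31 by edgeR. The size of its difference thus depended on the pseudocount as well as on the setting, and their parts were not separated.

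Promoters are shown for Klrk1, Klrc1 and Klrc2, which rose, and for Ncr1, which did not, so that neighbouring receptor genes and the NK-restricted gene can be read side by side. They are reference sequences from the RefSeq promoter table, build GRCm38.p6, which gave a promoter for 6 of the 9 genes, and each runs from 250 bases before to 50 after the start of the gene on the gene's own strand, 5′ to 3′. Capitals mark the core of a RUNX site, TGTGGT, read on either strand (ACCACA on the other). RUNX3 is a transcription factor of the CD8 T cell and NK cell lineages, and its gene was chosen after its values were seen. Runx3 was at 83.6 ± 7.61 TPM in ENT1KO and 49.7 ± 12.2 TPM in WT (limma-trend adjusted p = 0.00821). Relative to the CD8 T cell identity list, a scale explained below, it differed by -0.43 (exact permutation p = 0.0857). A part of RUNX3 in the receptor levels was not tested.

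Klrk1, chr6:129623815-129624114, minus strand: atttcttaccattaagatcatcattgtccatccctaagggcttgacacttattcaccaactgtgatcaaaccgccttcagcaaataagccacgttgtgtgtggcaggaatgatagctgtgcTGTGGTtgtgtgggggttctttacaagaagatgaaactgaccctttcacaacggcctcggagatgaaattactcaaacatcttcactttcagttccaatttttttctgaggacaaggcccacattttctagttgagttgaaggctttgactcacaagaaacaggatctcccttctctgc
Klrc1, chr6:129678924-129679223, minus strand: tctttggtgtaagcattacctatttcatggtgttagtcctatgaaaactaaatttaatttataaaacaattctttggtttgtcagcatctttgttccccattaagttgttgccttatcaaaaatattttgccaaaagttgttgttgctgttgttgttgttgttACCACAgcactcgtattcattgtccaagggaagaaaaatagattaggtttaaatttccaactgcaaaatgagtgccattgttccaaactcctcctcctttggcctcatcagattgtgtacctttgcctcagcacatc
Klrc2, chr6:129660547-129660846, minus strand: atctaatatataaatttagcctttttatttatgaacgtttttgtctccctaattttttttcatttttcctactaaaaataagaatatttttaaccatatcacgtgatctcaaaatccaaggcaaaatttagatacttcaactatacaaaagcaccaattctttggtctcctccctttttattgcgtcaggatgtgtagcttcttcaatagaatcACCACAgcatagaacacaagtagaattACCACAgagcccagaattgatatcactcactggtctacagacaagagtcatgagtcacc
Ncr1, chr7:4337465-4337764, plus strand: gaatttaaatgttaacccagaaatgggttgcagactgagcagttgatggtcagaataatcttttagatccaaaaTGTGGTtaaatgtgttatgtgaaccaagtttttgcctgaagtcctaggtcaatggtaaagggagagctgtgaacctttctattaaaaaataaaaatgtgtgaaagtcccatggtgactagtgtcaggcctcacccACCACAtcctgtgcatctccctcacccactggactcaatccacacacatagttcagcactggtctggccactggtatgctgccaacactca

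Counted from the gene start, the core began at -129 in Klrk1, at -87 in Klrc1 on the opposite strand, at -36 and -9 in Klrc2 on the opposite strand, and at -176 and, on the opposite strand, -41 in Ncr1. It was in a window of all 6 promoter genes, which was the case for 18.9% of 27025 genes that have such windows. The T-box core GTGTGA, searched on both strands, was in Klre1 and Ncr1 (16.4% of genes), the AP-1 core TGANTCA in Klrk1 and Klrc2 (8.97% of genes), and the ETS core AGGAAG in Klrb1c and Klre1 (38.4% of genes). The TCF core CTTTGAT was in none of the 6 genes (4.29% of genes). The motifs were chosen with these sequences in view, so the matches are descriptions of letters. Ncr1 and Klrc2 each held 2 RUNX cores, and no link between cores and gene level was tested. No match of one motif overlapped a match of another, the AP-1 core is its own reverse complement, and neighbouring ETS matches in Klrb1c share letters.

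**Figure D2:**
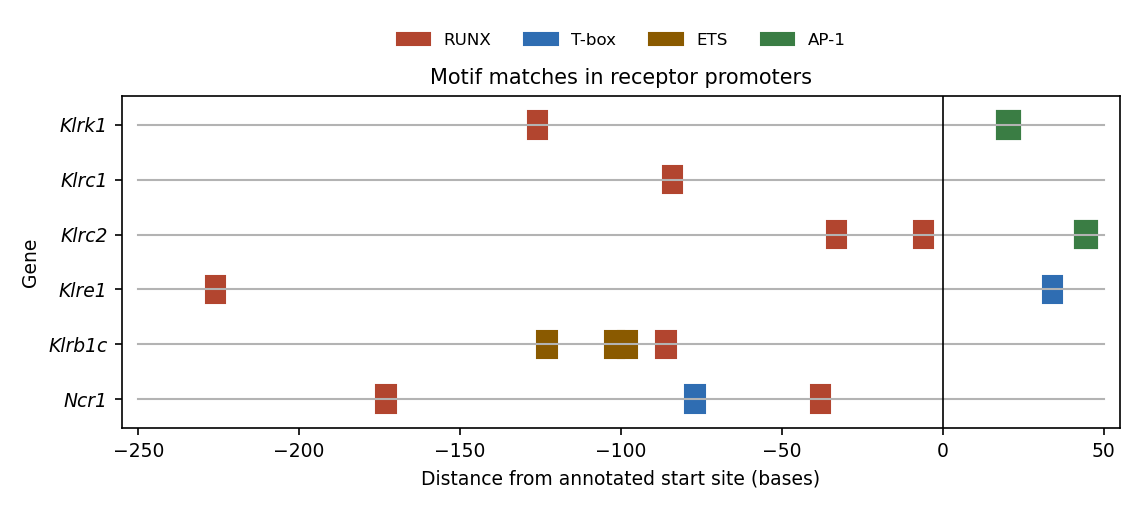
Positions of the motif cores within the first promoter window of each of the 6 genes, on an axis of bases from the gene start. The RUNX core occurs in every window at differing distances, from -229 in Klre1 to -9 in Klrc2.

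Klrk1 encodes NKG2D, an activating receptor of NK and CD8 T cells that binds stress-induced ligands (chromosome 6, 129587286 to 129600827, GRCm39). It stood at 712, 1093, 599 and 714 TPM in ENT1KO 11, 12, 14 and 15, against 369.8, 201.0 and 414 TPM in WT 1, 2 and 3. Every ENT1KO library was above every WT library, with ENT1KO 12 highest and WT 2 lowest. The means were 779 ± 216 TPM in ENT1KO (SD, n = 4) and 328 ± 113 TPM in WT (SD, n = 3), a ratio of 2.37. The log2 difference was 1.27 (SE 0.29, limma-trend adjusted p = 0.00817), and the exact two-sided permutation p over the 35 splits was 0.0286, which is the lowest value possible with 4 and 3 libraries. The authors' deposited table gave a log2 fold change of 1.1 (SE 0.27, adjusted p = 0.000285).

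Klrd1 encodes CD94, the chain that pairs with NKG2 proteins to form receptors for the class I-like molecule Qa-1 (chromosome 6, 129568745 to 129575738). Its levels were 931, 1158, 656 and 595 TPM in ENT1KO 11, 12, 14 and 15, against 529, 228 and 425 TPM in WT 1, 2 and 3. The groups did not overlap, though the gap between ENT1KO 15 and WT 1 was small. It averaged 835 ± 261 TPM in ENT1KO and 394 ± 153 TPM in WT (SD, n = 4 and 3), and its log2 difference was 1.11 (SE 0.33, limma-trend adjusted p = 0.0238). The call was lost without ENT1KO 11 (adjusted p = 0.0613), without ENT1KO 12 (0.0541) and without WT 2 (0.0726), while the direction stayed.

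Klrc1 encodes NKG2A, the inhibitory chain that pairs with CD94, and carries motifs that recruit phosphatases (chromosome 6, 129642978 to 129655936). It reached 733, 1010.5, 647 and 690.1 TPM in ENT1KO 11, 12, 14 and 15, against 395, 233 and 539.7 TPM in WT 1, 2 and 3. The groups did not overlap, and WT 3 was nearest to the ENT1KO values. The means were 770.1 ± 164 TPM in ENT1KO and 389 ± 154 TPM in WT, a ratio of 1.98 and a log2 difference of 1.04 (SE 0.28, limma-trend adjusted p = 0.0165). By edgeR the log2 difference was 0.72 and the adjusted p 0.0519, so this call did not hold there. Its log2 fold change in the authors' deposited table was 0.75 (SE 0.26, adjusted p = 0.0139). Part of the transcript is shared with its neighbours, and coding and untranslated bases were not separated. Of the 50-base windows of the longest protein-coding transcript, 40.3% also occur in Klrc2 or Klrc3, so read assignment among these genes is uncertain.

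Klrc2 encodes NKG2C, the activating counterpart that pairs with CD94 (chromosome 6, 129624459 to 129637652). It stood at 49.6, 60.6, 47.1 and 36.1 TPM in ENT1KO 11, 12, 14 and 15, against 19.9, 7.87 and 17.02 TPM in WT 1, 2 and 3. No library of one genotype reached the range of the other. The means were 48.3 ± 10.1 TPM in ENT1KO and 14.9 ± 6.26 TPM in WT, a ratio of 3.24, with a log2 difference of 1.7 (SE 0.3, limma-trend adjusted p = 0.00338), the greatest difference among the 9 in log2 terms. The authors' deposited table gave 1.54 (SE 0.31, adjusted p = 9.44e-06). Of its own windows 30.1% also occur in Klrc1 or Klrc3, so the ratio between Klrc1 and Klrc2 depends on how those reads were assigned. That ratio was 14.8, 16.7, 13.7 and 19.1 in ENT1KO, against 19.9, 29.6 and 31.7 in WT (exact two-sided permutation p = 0.0286, Benjamini-Hochberg adjusted over 9 ratios 0.193). The 9 ratios were chosen after the data were seen.

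Klrg1 encodes an inhibitory receptor for cadherins that marks short-lived effector CD8 T cells (chromosome 6, 122247555 to 122259841). It was at 3.88, 10.4, 3.57 and 14.2 TPM in ENT1KO 11, 12, 14 and 15, against 1.98, 2.65 and 3.02 TPM in WT 1, 2 and 3. Its ENT1KO libraries were all above the WT libraries, but they split into a lower and a higher pair, and the spread was wide at 8.03 ± 5.2 TPM in ENT1KO against 2.55 ± 0.527 TPM in WT. The log2 difference was 1.16 (SE 0.44, limma-trend adjusted p = 0.0549), so the gene did not pass the test, and the exact permutation p was 0.114. It was called without ENT1KO 11 (adjusted p = 0.0412) and without ENT1KO 14 (0.0247), and the authors' deposited table gave a log2 fold change of 1.45 (SE 0.52, adjusted p = 0.0153).

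Klrb1c encodes NK1.1, an NK cell antigen of C57BL/6 mice (chromosome 6, 128755448 to 128766178). Its levels were 11.5, 16.8, 17.5 and 10.4 TPM in ENT1KO 11, 12, 14 and 15, against 10.9, 6.83 and 10.3 TPM in WT 1, 2 and 3, which overlap. The log2 difference was 0.53 (SE 0.23, limma-trend adjusted p = 0.0869), and the exact permutation p was 0.171. The gene shares 18.1% of its 50-base windows with related loci and overlaps Gm44511, so its level is uncertain. Klre1 and Klri2 encode chains that, in mice, pair with each other or with related chains.

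Klre1 (chromosome 6, 129554868 to 129562790) was at 112.8, 142.5, 95.5 and 75.4 TPM in ENT1KO 11, 12, 14 and 15, against 72.03, 40.1 and 81.6 TPM in WT 1, 2 and 3. ENT1KO 15 fell inside the WT range, and the log2 difference was 0.74 (SE 0.28, limma-trend adjusted p = 0.0592). Klre1 passed without ENT1KO 15 (0.0359), without WT 3 (0.039) and with array weights (0.0375). Its log2 fold change in the authors' deposited table was 0.65 (SE 0.28, adjusted p = 0.0473). Klri2 (chromosome 6, 129706004 to 129717447) was at 19.2, 23.2, 19.2 and 6.58 TPM in ENT1KO and at 13.4, 7.35 and 13.4 TPM in WT. ENT1KO 15 was lower than every WT library in this gene, and the difference of 0.46 (SE 0.41) did not pass the test (limma-trend adjusted p = 0.37). Without ENT1KO 15 it was 0.83 (adjusted p = 0.0252). ENT1KO 15 was also the lowest ENT1KO library for 6 of the 9 genes.

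Ncr1 (chromosome 7, 4340723 to 4348163) was at 0.36, 0.48, 1.23 and 0.29 TPM in ENT1KO 11, 12, 14 and 15, against 1.53, 1.2 and 1.17 TPM in WT 1, 2 and 3. The groups overlapped only through ENT1KO 14, and the values rest on 8, 14, 31 and 6 reads in ENT1KO against 46, 30 and 30 reads in WT. The means were 0.59 ± 0.434 TPM in ENT1KO and 1.3 ± 0.2 TPM in WT, with a log2 difference of -0.56 (SE 0.23, limma-trend adjusted p = 0.0676, not called). ENT1KO 14 also held the most fibroblast and macrophage RNA of the ENT1KO libraries. Without it Ncr1 reached 1 TPM in WT libraries alone, so the log2 difference of -0.74 there is a description and no test. The part of that library's other RNA in the result was not tested.

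**Figure D3:**
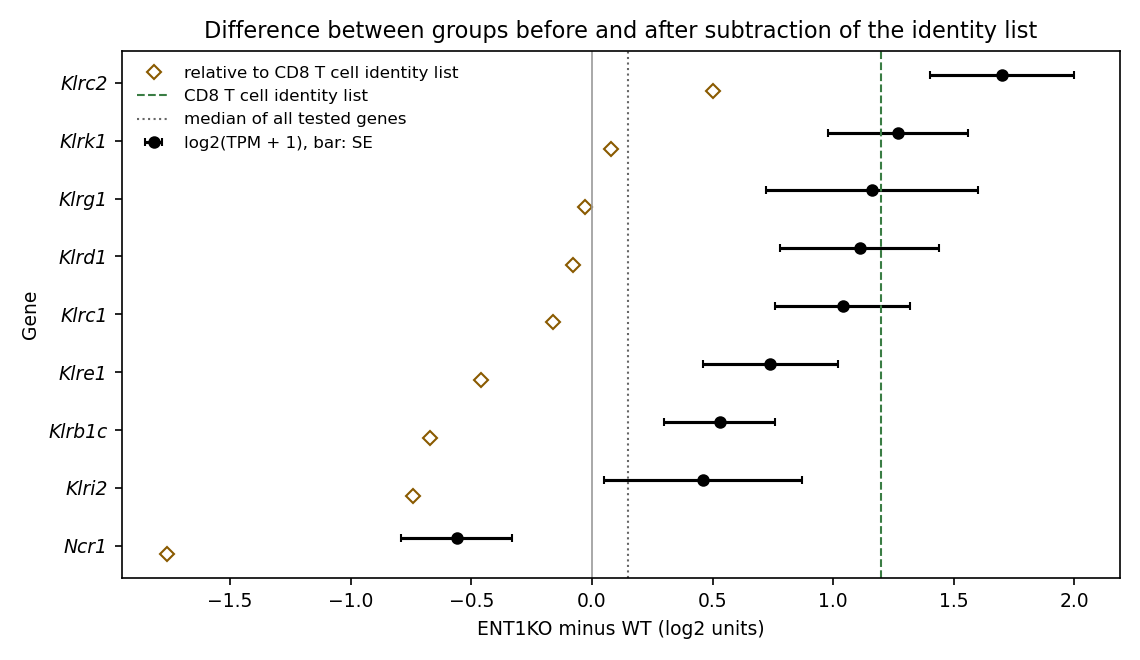
Log2 difference between ENT1KO and WT of each receptor gene, on log2(TPM + 1) with its standard error, beside the difference relative to the CD8 T cell identity list. The first set lies mostly between 0.46 and 1.7 with Ncr1 at -0.56, and the second lies near 0 for Klrk1, Klrc1, Klrd1 and Klrg1.

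CD8 T cell identity genes were higher in ENT1KO libraries, so each gene was also set against the mean log2(TPM + 1) of 15 identity genes in the same library. That mean was 9.04 in ENT1KO and 7.84 in WT, a difference of 1.2. On this scale Klrk1, Klrc1, Klrd1 and Klrg1 differed by 0.08, -0.16, -0.08 and -0.03, Klrc2 by 0.5, and Klrb1c, Klre1 and Klri2 by -0.67, -0.46 and -0.74. None of these 8 had a permutation p below 0.114, and the exact test can give no less than 0.0286. For Klrc2 the exact permutation p was 0.143. Ncr1 differed by -1.76 (exact two-sided permutation p = 0.0286), the only one of the 9 with so low a p. On the same test 66.1% of all tested genes were lower and 0.188% higher. A gene close to 0 TPM takes the change of the identity list with its sign turned on this scale, which applies to Ncr1. On normalized counts its value was -2.49 (exact permutation p = 0.0571).

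**Figure D4:**
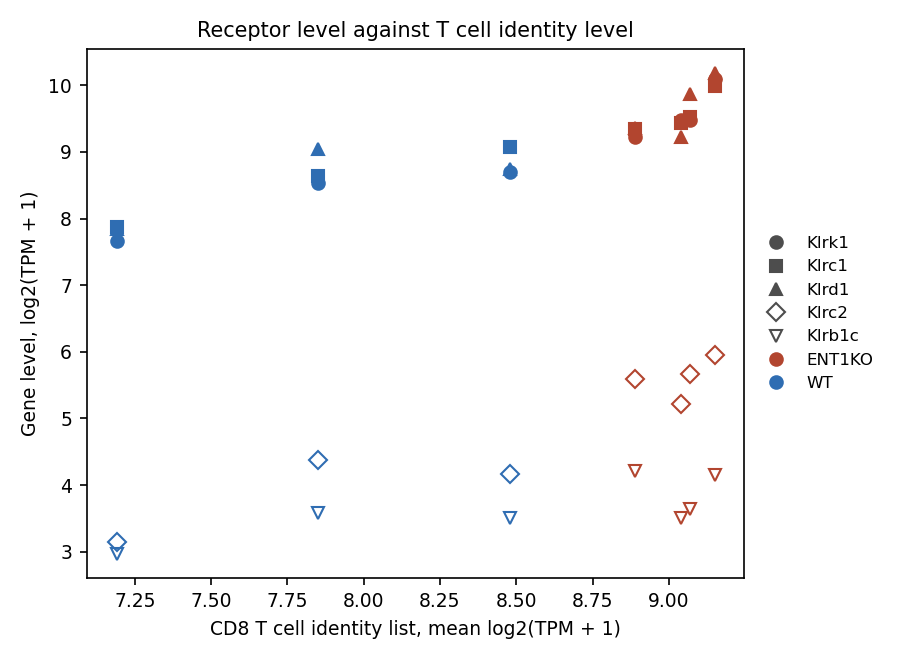
Level of receptor genes, on log2(TPM + 1), against the mean of the 15 T cell identity genes in the same library, with ENT1KO and WT points marked. The points of Klrk1 and Klrc1 climb with the identity level across both genotypes. Those of Klrd1 climb less evenly, with WT 3 below WT 1 and ENT1KO 15 below ENT1KO 14 despite higher identity levels.

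Adaptor genes moved in both directions. Hcst, which encodes the NKG2D partner DAP10, was at 159, 207, 147 and 166 TPM in ENT1KO 11, 12, 14 and 15, against 75.2, 39.9 and 113 TPM in WT 1, 2 and 3. These groups did not overlap (log2 difference 1.26, standard error 0.31, limma-trend adjusted p = 0.0125), and relative to the identity list the difference was 0.06. Klrk1 to Hcst was 4.53 ± 0.525 in ENT1KO and 4.54 ± 0.769 in WT, a ratio whose permutation p was 0.971. Tyrobp, which encodes DAP12, an adaptor of many myeloid cells and of activating NK receptors, was at 42.0, 46.8, 75.3 and 21.1 TPM in ENT1KO, against 174, 243 and 164 TPM in WT (log2 difference -2.15, standard error 0.38, adjusted p = 0.00341). Fcer1g fell as well, to 98.6 ± 51.8 TPM in ENT1KO against 250.7 ± 40.1 TPM in WT (adjusted p = 0.0341), although this call was lost with no filter and when any WT library or ENT1KO 11 was left out. Tyrobp and Fcer1g moved with the macrophage list, whose part in them was not tested. Over the adaptor and proximal signalling list, 9 of 15 genes rose and 4 fell, beside 27.5% and 23.1% of all tested genes. The median of the list was 0.64, against 0.15 over all tested genes. Zap70 was at 205 ± 23.8 TPM in ENT1KO and 104.8 ± 42.8 TPM in WT (adjusted p = 0.0122). Pik3cd was at 236 ± 21.9 TPM in ENT1KO and 109.2 ± 38.6 TPM in WT (adjusted p = 0.00473), and Ptpn6, the phosphatase SHP-1 to which inhibitory receptors bind, at 295 ± 30.5 TPM in ENT1KO and 193 ± 51.6 TPM in WT (adjusted p = 0.0187, lost by edgeR at 0.0613, without WT 1 at 0.0596 and without WT 2 at 0.0602). Relative to the identity list Zap70, Pik3cd and Ptpn6 differed by -0.16, -0.04 and -0.56.

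Ligand genes in the sorted cells were read too, since CD8 T cells carry class I molecules themselves. Of 11 tested ligands 7 rose and 3 fell, beside 27.5% and 23.1% of all tested genes. Their median was 0.62, against 0.15 over all tested genes. Raet1d and Cdh2, among those that fell, reached 1 TPM in WT libraries alone, so their calls are descriptions and no tests. H2-T23, which encodes Qa-1, the ligand of the CD94 and NKG2 pairs, was at 376.5 ± 7.57 TPM in ENT1KO and 212 ± 47.8 TPM in WT (log2 difference 0.85, adjusted p = 0.00286). H2-Q7 was at 829 ± 41.0 TPM in ENT1KO and 353.5 ± 129 TPM in WT (log2 difference 1.3, adjusted p = 0.00332), and H2-K1 at 4535 ± 232 TPM in ENT1KO and 3156 ± 382 TPM in WT (log2 difference 0.53, adjusted p = 0.00553, but 0.06 on normalized counts and 0.0924 by edgeR). H2-D1 was at 1854 ± 92.5 TPM in ENT1KO and 1605 ± 137 TPM in WT and did not pass (log2 difference 0.21, adjusted p = 0.104, and -0.02 under quantile normalization). Relative to the identity list H2-T23, H2-Q7, H2-K1 and H2-D1 differed by -0.35, 0.1, -0.67 and -0.99. The 3 tested NKG2D ligands, chosen after their values were seen, did not move one way. Raet1d was lower, at 0.508 ± 0.231 TPM in ENT1KO and 3.61 ± 1.32 TPM in WT. It reached 1 TPM in WT libraries alone, so its log2 difference of -1.59 is a description and no test. Raet1d overlaps Raet1e, so its read assignment is uncertain. Ulbp1 fell, at 21.1 ± 3.2 TPM in ENT1KO and 32.0 ± 8.48 TPM in WT (log2 difference -0.55, adjusted p = 0.0477). H60b rose, at 2.27 ± 0.669 TPM in ENT1KO and 0.887 ± 0.677 TPM in WT (log2 difference 0.84, adjusted p = 0.0446), and it also overlaps Raet1e. The calls for Ulbp1 and H60b were lost without WT 2 (adjusted p = 0.158 and 0.159) and in several other alternatives.

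Among 18 tested lectin genes of the same complex that were not among the 9, 1 rose and 3 fell. These counts stand beside 27.5% and 23.1% of all tested genes. The median was 0.31, against 0.15 over all tested genes, and without WT 2 only 1 call was left. Cd69, an early activation lectin, was at 375 ± 134 TPM in ENT1KO and 166 ± 62.0 TPM in WT (log2 difference 1.18, adjusted p = 0.0178, lost without WT 2 at 0.0641). Klra7 (log2 difference 0.88), Klrh1 (0.24, but -0.1 without WT 2) and Klra5 (0.05, but -0.13 on normalized counts) did not pass the test (adjusted p = 0.106, 0.657 and 0.936). Klra7 shares 14.7% of its 50-base windows with Klra13-ps, so its level is uncertain. Klra4, a Ly49 receptor gene of NK cells, fell to 1.85 ± 1.59 TPM in ENT1KO against 23.5 ± 9.46 TPM in WT (log2 difference -3.23, standard error 0.48, adjusted p = 0.00193), and Klra2 to 5.5 ± 3.99 TPM in ENT1KO against 24.3 ± 9.16 TPM in WT (log2 difference -2.16, adjusted p = 0.0164, lost without WT 2 at 0.0777). Klra8 was lower too but reached 1 TPM in WT libraries alone, so its call, lost in 6 alternatives, is a description and no test. These 3 were chosen after their values were seen. Klra4 and Klra2 were highest in WT 2 and, among ENT1KO libraries, highest in ENT1KO 14 and lowest in ENT1KO 15. The macrophage and fibroblast sums had the same extremes, and their part in these genes was not tested. Among these 18 genes ENT1KO 15 was the lowest ENT1KO library for 14, and WT 2 the lowest WT library for 15.

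Of the transcription factors of NK and effector CD8 T cells, 9 of 15 tested rose and 2 fell, beside 27.5% and 23.1% of all tested genes. Without WT 2 there were 7 calls in all. Tcf7, a factor of naive and memory T cells, had a log2 difference of 1.39 (adjusted p = 0.00879), Ets1 of 1.01 (0.0186), Id2 of 0.84 (0.0185, lost without WT 2 at 0.0657), and Tbx21 of 0.9 (0.0313, lost by edgeR at 0.0912 and in 6 other alternatives). Relative to the identity list Tcf7, Ets1, Id2 and Tbx21 differed by 0.19, -0.19, -0.36 and -0.3. Of the NK cell markers other than the 9 genes, 5 rose and 5 fell of 18 tested, beside 27.5% and 23.1% of all tested genes. Leaving out WT 2 gave 3 calls and leaving out WT 1 gave 6. The 5 that rose were Serpinb9b, Nkg7, Cd160, Il18rap and Gzma. Those that fell were Klra4, Klra8, Sh2d1b1, Adamts14 and Cma1, of which Klra8 reached 1 TPM in WT libraries alone. Sh2d1b1 and Cma1 were highest in WT 2 and, among ENT1KO libraries, highest in ENT1KO 14 and lowest in ENT1KO 15. The macrophage and fibroblast sums had the same extremes, and their part in these genes was not tested. Adamts14 and Klra8 did not share all of these extremes. In bulk RNA none of the listed genes can be assigned to NK cells. The Klra genes of this list are also among the other lectins of the complex. Nkg7, a cytotoxic granule gene, was at 1156 ± 153 TPM in ENT1KO and 581 ± 260.3 TPM in WT (adjusted p = 0.0135), and Gzma, a granzyme, at 248 ± 84.0 TPM in ENT1KO and 115.1 ± 42.0 TPM in WT (adjusted p = 0.0176, lost without WT 1 or WT 2). Xcl1 and Il2rb, with log2 differences of 0.22 (-0.03 without WT 2) and 0.7, did not pass (adjusted p = 0.475 and 0.0757). NK marker genes summed to 3237 ± 581 TPM in ENT1KO, against 1974 ± 643 TPM in WT (exact permutation p = 0.0857), beside Ncr1 at 0.59 TPM in ENT1KO and 1.3 TPM in WT. Nkg7, Il2rb and Xcl1 held the largest parts of that sum, at 1156, 635 and 581 TPM in ENT1KO and 581, 400 and 503 TPM in WT. The markers that fell carried little of it. The ratio of the ENT1KO mean to the WT mean was 1.64 for this sum and 2.13 for the CD8 T cell identity sum. Relative to the identity list Nkg7, Il2rb, Xcl1 and Gzma differed by -0.12, -0.5, -0.98 and -0.1. Of the gamma-delta and innate-like T cell genes 1 of 4 tested rose and 0 fell, beside 27.5% and 23.1% of all tested genes. The gene that rose was Trgc1 (adjusted p = 0.0173, lost without WT 2). Trdc, Trgc2 and Trgc4, with log2 differences of 0.54, 0.63 and 0.87, did not pass (adjusted p = 0.0929, 0.0918 and 0.0691). The genes of this list summed to 144.9 ± 35.02 TPM in ENT1KO, against 87.8 ± 31.4 TPM in WT (exact permutation p = 0.0571).

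**Figure D5:**
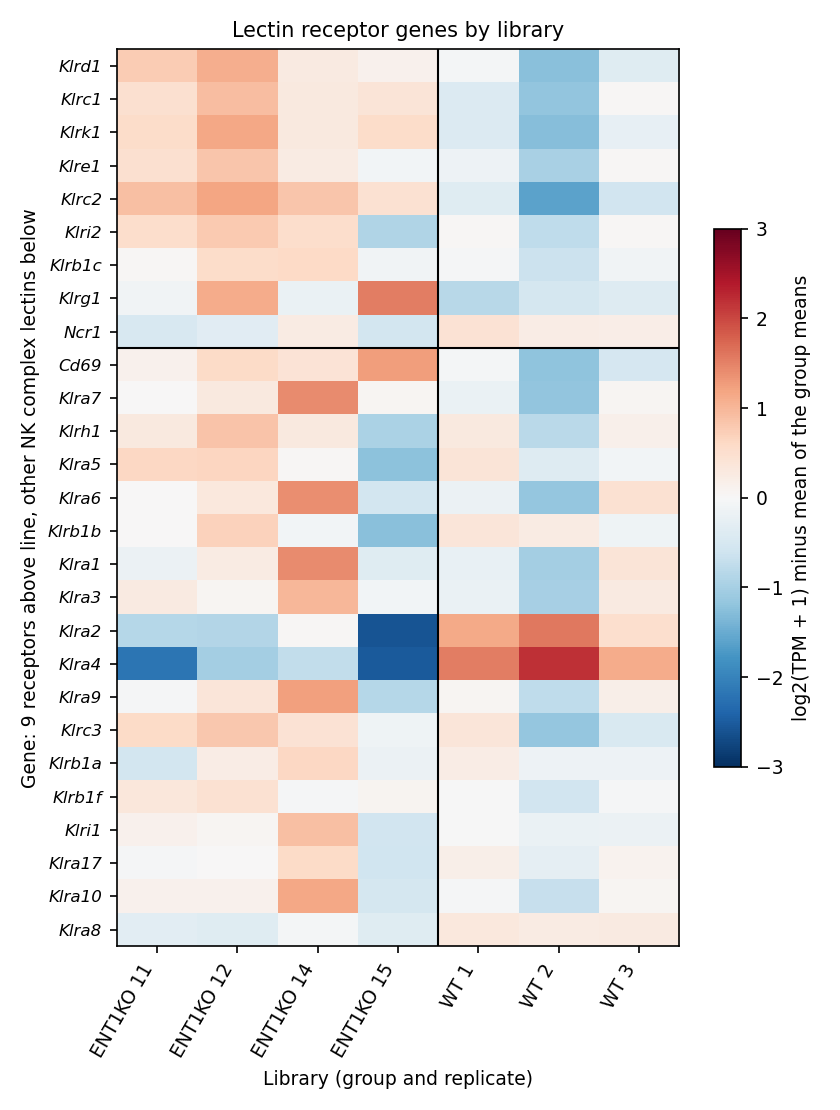
Log2 level of the receptor genes and the other lectins of the complex per library, each row centred on the mean of its 2 group means, with ENT1KO columns left of WT columns. Klrk1, Klrc1, Klrc2, Klrd1, Klrg1 and Cd69 are higher in all ENT1KO columns, and Klra4, Klra2 and Klra8 are lower.

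Over the 7 libraries, the genes whose pattern was most like each receptor were found by the root mean square difference of centred log2 levels, among 10269 other genes. Klrk1 was nearest Sytl2 (0.09) and Fam71b (0.12), Klrc1 nearest Ctla2a (0.07), and Klrc2 nearest Gvin-ps6 (0.16) and Gimap8 (0.18). Klrd1 was nearest Il18r1 (0.16) and Gm48838 (0.18), Klre1 nearest Runx2 (0.08) and Rabgap1l (0.1), and Klrg1 nearest Trav14-1 (0.31) and Kcnj8 (0.33). Klrb1c was nearest Kdm2b (0.12) and Gem (0.12), and Klri2 nearest Ikzf4 (0.13) and Tnfrsf4 (0.15). Among the 8 receptor genes compared, which leave out Ncr1 for its mean under 5 TPM, Klrk1 and Klrc1 were the closest pair (0.15) and Klrg1 and Klri2 the farthest (1.06). All of these libraries share the same difference in T cell RNA between genotypes, so likeness of pattern is a description.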

How the data were processed

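RNA-seq libraries were prepared from 75 ng of RNA by polyA selection, per the labels' protocols. The authors deposited TPM values, which sum to the same total in every library and keep no depth, and a comparison table. Its sample columns hold a signal, the read counts divided by a size factor, as deposited by the authors. It also holds log2 fold changes, a test score, p-values and adjusted p-values deposited by the authors. The submitters' processing notes list, without roles, GRCm39, STAR 2.7.1a, RSEM, Trimmomatic (0.35 and 0.38), DESeq and DESeq2 1.30.1. Nothing more on these tools was found in the labels.

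All normalized counts were whole multiples of the smallest value (100% within 0.01), so reads were recovered and tested with edgeR 4.0.16, an alternative added after the data were seen. For WT 1 and WT 3 the step (0.9937 and 0.9959) lies so close to 1 that a check of the unit did not accept these 2 columns as whole reads, and their read numbers are less certain. The main test was limma-trend (limma 3.58.1, R 4.3.3) with robust empirical Bayes on log2(TPM + 1), genotype as the only term, for the 13798 genes that reached 1 TPM in 3 or more libraries, with Benjamini-Hochberg adjustment over all of them. A pseudocount of 1 shrinks differences of weakly expressed genes. Single values were tested by exact two-sided permutation over 35 splits. The 9 genes and the 9 lists, of which 140 of 145 entries matched a name, were chosen with earlier results of these data known. The models were tested on simulated data. Alternatives were other pseudocounts, filters, quantile normalization, normalized counts, array weights and leaving out each library. Motifs and 50-base windows were read from RefSeq promoters (GRCm38.p6) and GENCODE M21 transcripts, a build other than that of the deposited coordinates. All 9 genes are named. Of every other list the 4 tested genes with the largest mean TPM are named, with Hcst, Tyrobp and Fcer1g, and for each of the 9 with a mean of at least 5 TPM the 2 genes nearest in pattern, of which 1 is not reported here. Others named were chosen after their values were seen. Plots used matplotlib 3.10.9.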

Additional observations from a re-analysis of the deposited data

Results flagged for a closer look

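Among 65 groups of 4 ENT1KO libraries examined, 7 held a library far from the other 3 by Dixon's criterion, which chance gives in about 1 group in 20. ENT1KO 12 stood above the others for Klrc1 relative to the CD8 T cell identity list, at 0.83 on the log2 scale, and for Cd3g, at 1659 TPM. ENT1KO 15 stood below them for Klri2 relative to that list, at -6.11. ENT1KO 14 stood above them for Ncr1 relative to the list, at -7.73, for Col3a1, at 220.7 TPM, for Klra7, at 127.5 TPM, and for Trgc4, at 35.9 TPM. ENT1KO 14 also had the highest level of the ENT1KO libraries for 10 of 11 tested Klra genes.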

How the results depend on the processing

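The groups held 4 and 3 libraries, and the calls depended on single libraries. Leaving out each library gave 3 to 6 changed receptor genes (main 4), 4840 to 6853 genes over all, 1 to 4 other lectins of the complex, 7 to 12 transcription factors, 3 to 12 NK markers (main 10), 8 to 13 macrophage genes and 0 to 2 gamma-delta T cell genes (main 1). Leaving out WT 2 gave the lowest of each of these counts, a tie with ENT1KO 12 for the receptor genes, and leaving out WT 1 gave 6 NK markers. Array weights gave 7 receptor genes, with Ncr1 lower, and quantile normalization 7 other lectins of the complex against 4. The gamma-delta count was 2 with no filter and 3 with quantile normalization. The number of receptor genes that differed relative to the identity list was 1, and 0 on normalized counts and with a pseudocount of 0.1. On that scale Klrd1 was 0.02 with Cd3e alone as the identity measure, and Klrg1 was 0.07 with Cd3e alone, 0.17 on normalized counts and 0.19 with a pseudocount of 0.1. Of all called genes 54.4% were higher by TPM, 42.9% on normalized counts, 39.6% by edgeR and 44.8% with no filter. The cause of these changes was not tested. No paired analysis was possible because the groups share no replicate numbers.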
